A study of Bos taurus with 18 samples.

Results

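ASB11 encodes ankyrin repeat and SOCS box containing 11, and it is 1 of 9155 genes that the array measures under a single gene symbol. It was chosen by the smallest p among 24016 tested probe sets in milk cells of endometritis against healthy cows, so its group differences are given here as a description, with no test. All probe sets whose symbol is exactly ASB11 were taken, and there was 1. Milk cells of 18 cows were measured, with 1 Affymetrix bovine array per cow. The 6 healthy cows were 2 to 4 years old and in lactations 1 to 8, had fewer than 100000 somatic cells per ml of milk, and were mostly sampled 10 to 100 days after calving. The other groups were 6 cows with mastitis, an inflammation of the udder, and 6 cows with endometritis, which inflames the lining of the womb after calving, both in lactations 1 to 8 and at 10 to 220 days post partum. The sources used here give no age for the diseased cows, and no pathogen, severity or treatment. An age of at most 4 years does not go together with 8 lactations, so the ages or lactations of the healthy cows are in doubt.

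ASB proteins are substrate receptors. Their ankyrin repeats bind a target protein, and their SOCS box binds elongin B, elongin C and the scaffold CUL5, which together with the RING protein RNF7 attach ubiquitin to that target. The ligase is switched on when the small modifier NEDD8 is joined to CUL5, a step that the conjugating enzyme UBE2F serves and that COPS5, the catalytic subunit of the COP9 signalosome, reverses. ASB11 itself is best known from skeletal muscle and its progenitor cells, from the endoplasmic reticulum (ER), where it has been linked to the ER stress response and to degradation of the cell death protein BIK, and from zebrafish, where its relative acts on the Notch ligand Delta. Milk cells are a mixture of shed mammary epithelium and leukocytes such as macrophages, T cells and neutrophils.

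ASB11 was high in 5 of 6 healthy cows and low in every diseased cow. On the log2 scale of normalised intensity, healthy cows 1 to 6 read 8.07, 8.35, 7.29, 9.17, 7.16 and 4.65, with a median of 7.68 and a mean of 7.45 ± 1.56 (SD, n = 6). The lowest of them, healthy cow 6, lay 2.51 below the next healthy cow, while the other 5 had a mean of 8.01 ± 0.83 (SD). Cows 1 to 6 with mastitis read 3.12, 3.74, 3.74, 3.61, 3.65 and 3.76, with a median of 3.70 and a mean of 3.60 ± 0.25 (SD, n = 6). Cows 1 to 6 with endometritis read 3.76, 3.76, 3.63, 3.74, 3.67 and 3.74, with a median of 3.74 and a mean of 3.72 ± 0.055 (SD, n = 6). All 6 healthy cows were above all 12 diseased cows. The endometritis range lay within the mastitis range, and mastitis cows 1 and 4 were below every endometritis cow. The order of the group means was healthy, endometritis, mastitis, and the last pair differed by less than the SD of the mastitis group.

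**Figure D1:**
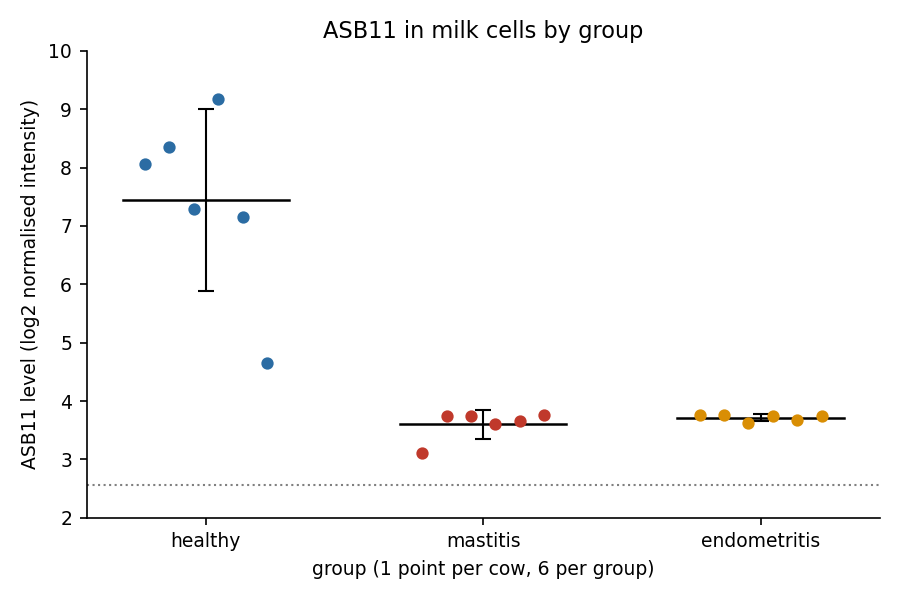
ASB11 level (log2 normalised intensity) on each array, with 6 cows per group; horizontal bars are group means, error bars are SD, and the dotted line is the median of the whole table, 2.55. Of the healthy cows 5 lie between 7.16 and 9.17 and cow 6 at 4.65, while the 12 diseased cows lie between 3.12 and 3.76.

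The endometritis mean was 3.73 ± 0.52 (SE of the limma fit) log2 units lower than the healthy mean, 13.3-fold in the deposited intensities. This was the contrast that chose the gene: its p of 2.36e-06 was the smallest of 24016, its difference was also the largest in either direction, and its adjusted p by limma with Benjamini-Hochberg correction was 0.0566. No probe set passed the adjusted threshold of 0.05 in this comparison, so the share of genes called by limma was 0% in each direction, and 1047 probe sets had an unadjusted p under 0.05. The next genes by p had smaller differences, from which nothing is read here. They were CHCHD10, a mitochondrial protein of the intermembrane space (-1.34, limma adjusted p = 0.572), POLR2J, a subunit of RNA polymerase II (-0.66), CTR9, a subunit of the PAF1 transcription elongation complex (0.84), DNAJC9, a heat shock protein cofactor (0.17), and CRYAB, a small heat shock protein abundant in muscle and lens (-1.77). Adjusted p was 0.596 for each of the last 4 (limma).

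Against mastitis the healthy mean was higher by a similar amount. The difference of mastitis minus healthy was -3.84 ± 0.52 (SE), or 14.4-fold, and shared the healthy arrays with the contrast that chose the gene. In that comparison ASB11 stood 60th among the falls of 24016 probe sets. By size in either direction it stood 150th. In mastitis 15.8% of genes were called lower and 11.3% higher by limma, shares that count calls and not differences of this size. The mean of the mastitis arrays minus that of the endometritis arrays was -0.11 ± 0.52 (SE), and no fold is given because both groups were near the low end of the scale. In mastitis against endometritis, 10.9% of all genes were called lower and 9.14% higher.

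Complete separation was uncommon among the endometritis arrays. Every healthy array was above every endometritis array at 25 probe sets, 0.104% of those tested, and above every mastitis array at 1402, or 5.84%. All 6 healthy arrays were above all 12 diseased arrays at 19 probe sets, 0.0791%. ASB11 had the widest gap of these 19, 0.89 log2 units between the lowest healthy and the highest diseased array. A probe set without a gene symbol followed at 0.40, and then POLR2I, another subunit of RNA polymerase II, at 0.18 and COX7A2, a subunit of cytochrome c oxidase, at 0.16. Further genes of the respiratory chain and ATP synthase among the 19 were NDUFC1, UQCRB, COX8A, ATP5PF and ATP5MG, and NEDD8, the modifier of CUL5, was there with a gap of 0.094. These companions were picked out after their values were seen.

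The diseased readings sit where the deposited values carry little information. Mastitis cows 2 and 3 and endometritis cows 4 and 6 had exactly the same ASB11 value, 3.74, and mastitis cow 6 shared 3.76 with endometritis cows 1 and 2. In all, 7 of 12 diseased arrays shared a value with another array, and no healthy array did. Over all tested probe sets, 54.4% of values under 4 were repeated exactly on another array, against 1.08% of values at or above 4. The level of ASB11 RNA in diseased cows, and any order among those cows, cannot be read from such values, and a fold change against them depends on where the authors' normalisation put its low end. The diseased readings were above the table's median of 2.55 on every array, which does not by itself show signal. Values above that median also repeated, as 2.63 did for BTN1A1 in mastitis cows 2, 3, 5 and 6.

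Healthy cow 6 also had the lowest correlation with its group, so the main values are also given without it. Across all probe sets its median correlation with the other healthy arrays was 0.912, against 0.933 to 0.967 for those. Without it, the ASB11 difference of endometritis minus healthy was -4.29, and that of mastitis minus healthy was -4.40. Only 7 of 24016 probe sets, ASB11 included, set healthy cow 6 below the other healthy cows by at least as much as ASB11 did.

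Marker genes of the cell types in milk, from lists that were compiled with earlier results of these data known, were set beside ASB11. The mean of 10 mammary secretory genes (caseins, LALBA, PAEP, GLYCAM1, BTN1A1, ELF5 and FASN) ran from 11.8 to 13.0 in healthy cows, 10.4 to 13.0 in endometritis and 5.53 to 9.39 in mastitis. None of the 10 passed in endometritis against healthy (limma, smallest adjusted p = 0.925, 0 with an unadjusted p under 0.05). All 10 fell in mastitis against healthy, where 15.8% of all genes were called lower. Endometritis cows 1 and 3 had secretory means of 13.0 with ASB11 at 3.76 and 3.63. Healthy cows 3 and 4 had secretory means of 13.0 and 12.9 with ASB11 at 7.29 and 9.17. The lowest secretory means of these groups were 11.8 in healthy cow 6, with ASB11 at 4.65, and 10.4 in endometritis cow 5, with ASB11 at 3.67. ASB11 was chosen for its difference between these groups, so nothing is read from such pairs. The part of secretory cells was not tested. In bulk RNA, fewer cells of a type and less RNA per cell cannot be told apart.

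Leukocyte markers were compared in the same way. T cell markers ran from 2.91 to 5.33 in healthy, 3.52 to 6.49 in endometritis and 2.66 to 4.95 in mastitis. Healthy cow 6 had the 5.33. Neutrophil markers ran from 4.95 to 7.07 in healthy, 4.30 to 7.31 in endometritis and 8.77 to 10.3 in mastitis. Against healthy, 7 of 8 measured genes rose in mastitis, where 11.3% of all genes were called higher. Macrophage markers ran from 4.47 to 7.65 in healthy and 4.64 to 8.55 in endometritis. None of the measured T cell, neutrophil, macrophage, epithelial, B cell or erythroid markers passed in endometritis against healthy (limma, smallest adjusted p = 0.925, and 1 epithelial marker with an unadjusted p under 0.05). Of these, KRT8, CD4 and the erythroid gene SLC4A1 averaged 2.43 to 2.44 in every group, at or near the table's lowest value. The part of these cell types in the ASB11 difference was not tested.

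Skeletal muscle, the tissue for which ASB11 is best known, was looked for through its own genes. The mean of 10 measured muscle genes ran from 3.22 to 3.41 in healthy, 3.52 to 3.79 in mastitis and 3.11 to 3.54 in endometritis, and none passed in any of the 3 comparisons (limma, smallest adjusted p = 0.0953, with 0, 1 and 1 genes at an unadjusted p under 0.05). In each group 5 of the 10 were at or under the table's median on all 6 arrays, and the regulators of muscle differentiation MYOD1 and MYOG averaged 2.43 each in healthy cows. MYH7, a slow myosin heavy chain, and CKM, the muscle creatine kinase, were exceptions. MYH7 averaged 7.90 in healthy, 9.32 in mastitis and 8.80 in endometritis cows, and CKM 5.51, 6.98 and 5.11 in the same order.

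A measure of RNA quality differed between the groups. The 3′ probe set of GAPDH read above its 5′ probe set by 0.88 ± 0.40 (SD, n = 6) in healthy, 0.39 ± 0.23 in mastitis and 0.58 ± 0.25 in endometritis cows, where a larger value is usually read as RNA that is more degraded. Within the healthy group the largest value, 1.52, was in cow 4, which had the highest ASB11, and the smallest, 0.35, was in cow 6, which had the lowest. Over the 6 healthy arrays its r with ASB11 was 0.74 (rho = 0.49), and without cows 6 and 4 the remaining 4 arrays ran the opposite way (r = -0.90). With this difference as a covariate, the ASB11 difference from healthy was -3.19 in endometritis and -2.96 ± 0.53 (SE) in mastitis. With the secretory mean as a covariate, the same values were -3.70 and -3.36 ± 1.44 (SE), the last with an error well above the 0.52 of the fit without covariates. These are the values that chose the gene, and the part of RNA quality and cell mixture in them was not tested.

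**Figure D2:**
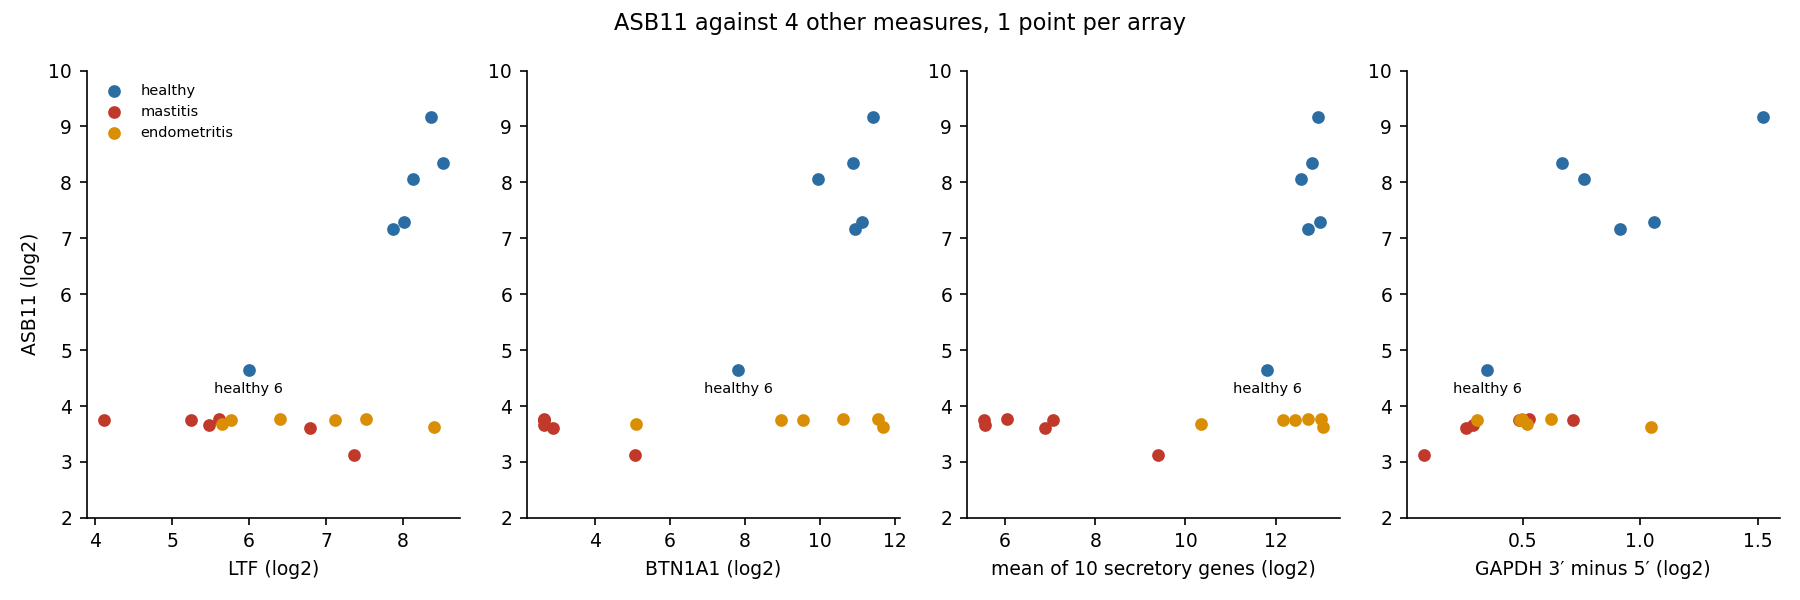
ASB11 (log2, vertical axes) against LTF, BTN1A1, the mean of 10 secretory genes and the GAPDH 3′ minus 5′ difference (all log2), 1 point per array and 6 per group. Endometritis arrays spread over secretory means from 10.4 to 13.0 with ASB11 between 3.63 and 3.76, and healthy cow 6 lies apart from the other 5 healthy cows.

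The genes whose levels followed ASB11 most closely over the 6 healthy arrays were led by LTF and CIDEA. Among 2203 genes with an SD of at least 0.5 over those arrays and a mean above the table's median, 2 had a Pearson r above 0.9. LTF, the iron-binding milk protein lactoferrin, had r = 0.95 (Spearman rho = 0.94, n = 6), and CIDEA, a lipid droplet protein involved in milk fat secretion, had r = 0.90 (rho = 0.77). Then came B4GALT1, the catalytic subunit of lactose synthase (r = 0.88), XDH, a component of the milk fat globule membrane (0.88), the transcription elongation factor ELL2 (0.86), the milk fat globule protein BTN1A1 (0.85), the stress-induced NUPR1 (0.84), ELF5, a transcription factor of the secretory epithelium (0.83), the zinc finger gene ZNF75D (0.83) and the zinc transporter SLC39A8 (0.83). These correlations are descriptions over arrays that share depth of signal, RNA quality and cell mixture.

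Most of these likenesses rested on healthy cow 6. Left without cows 6 and 4, the 2 farthest from the median of ASB11, LTF kept r = 0.91 over 4 arrays. CIDEA fell to 0.31, and the other 8 turned negative, from -0.063 for NUPR1 to -0.61 for SLC39A8. When healthy cow 6 alone was left out, none of the 10 genes was again among the 10 most like ASB11. LTF read 8.13, 8.52, 8.01, 8.37, 7.88 and 6.00 in healthy cows 1 to 6, in nearly the order of ASB11, and a second LTF probe set averaged 2.43 in healthy cows and carried no signal.

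At the opposite end, 14 genes had r under -0.9. The 5 lowest were LOC618541 (-0.96), PIK3R1, a regulatory subunit of PI3-kinase (-0.96), SH2D1A, a signalling adaptor of T and NK cells (-0.95), ABRACL, an actin regulator (-0.95), and LOC614871 (-0.94). SH2D1A read 3.60, 3.06, 4.02, 3.19, 3.67 and 4.97 in healthy cows 1 to 6, and it was highest where ASB11 was lowest. Without cows 6 and 4 its r was -0.82 over 4 arrays, and that of PIK3R1 was -0.78. The mean of 8 T cell markers had r = -0.87 with ASB11 over the 6 healthy arrays (rho = -0.77), and the mean of the secretory genes r = 0.85 (rho = 0.54), which became -0.34 without cows 6 and 4.

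The likeness could hardly be examined outside the healthy group, where ASB11 varied little. The 15 genes were tested against ASB11 over the 6 mastitis arrays and over the 6 endometritis arrays, none of which had picked them. In 30 exact two-sided permutation tests over 720 pairings, no adjusted p was under 0.05. The smallest possible p is 0.00278 at best. It is higher where more values tie, as for ASB11 in endometritis and BTN1A1 in mastitis, so such tests could hardly pass. The smallest adjusted p was 0.167, for NUPR1 in mastitis (r = -0.87, permutation p = 0.00556, adjusted over the 30 tests), and 4 of 30 had an unadjusted p under 0.05. ASB11 spanned 0.64 log2 units in mastitis, mostly through cow 1, and far less in endometritis, so these tests had little variation to work with.

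The group means of the same genes are given as a description. BTN1A1 had a mean of 10.3 in healthy, 9.57 in endometritis and 3.08 in mastitis cows, and its lowest, median and highest values in endometritis were 5.08, 10.1 and 11.7. ELF5 averaged 11.5, 10.4 and 3.46, and CIDEA 7.79, 7.0 and 2.59, in the same order. LTF averaged 7.82, 6.81 and 5.77. Of the 10 genes none passed in endometritis against healthy (limma, adjusted p from 0.925 to 1, 0 with an unadjusted p under 0.05), with a median difference of -0.76, where ASB11 differed by -3.73. ASB11 was chosen in this comparison and had the largest difference of all probe sets. Smaller differences in other genes were therefore fixed in advance, and nothing is read from them. In mastitis against healthy 4 of the 10 were lower (LTF, CIDEA, BTN1A1 and ELF5), where 15.8% of all genes were. Against endometritis 3 of the 10 were lower (CIDEA, BTN1A1 and ELF5), where 10.9% of all genes were.

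Over all 18 arrays a different set of genes was most like ASB11, with 0 genes shared between the 10 above and these 8. From 3542 eligible genes they were RRAD, a small GTPase first described in muscle (r = 0.86, rho = 0.69, n = 18), CHCHD10 (0.84), SPINK4, a serine protease inhibitor (0.83), MSRB2, a mitochondrial methionine sulfoxide reductase (0.83), MYBPC1, a slow muscle myosin binding protein (0.83), NAPRT, an enzyme of NAD synthesis (0.80), SYT17, a synaptotagmin (0.80), and CRYAB (0.80). The group difference itself makes such correlations high, and they are given as a description. Without healthy cows 4 and 2, the arrays farthest from the median, r ran from 0.72 for SYT17 to 0.92 for RRAD. Within the healthy arrays alone it ran from 0.24 for CRYAB to 0.75 for MYBPC1.

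RRAD read 6.09, 4.10, 6.22, 6.50, 5.76 and 3.41 in healthy cows 1 to 6. In mastitis its lowest, median and highest values were 2.96, 3.26 and 3.92, and in endometritis they were 2.90, 3.35 and 4.45. Healthy cow 6 was thus within the range of the diseased cows, and cow 2 below the highest endometritis cow. MYBPC1 read 5.05, 6.22, 6.88, 6.00, 6.16 and 2.63 in healthy cows, 2.43 to 2.50 in mastitis and 2.43 to 4.86 in endometritis. Here too healthy cow 6 fell within the endometritis range, and its other 2 probe sets averaged 2.43 to 2.47 in every group. CRYAB ran from 4.24 to 6.66 in healthy, 2.43 to 2.96 in mastitis and 2.73 to 4.26 in endometritis. The healthy and endometritis groups overlapped between 4.24 and 4.26, through healthy cow 2 and endometritis cow 1, and the mastitis and endometritis groups between 2.73 and 2.96.

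All 8 genes were lower in the endometritis mean than in the healthy mean, from -0.89 for MSRB2 to -1.93 for RRAD. None passed (limma, adjusted p from 0.572 to 0.925), and all 8 had an unadjusted p under 0.05, as had 1047 of 24016 probe sets. In mastitis all 8 were lower with an adjusted p between 0.000279 and 0.0103 by limma, where 15.8% of all genes were called lower. The differences ran from -1.25 for SYT17 to -3.03 for MYBPC1. Both comparisons use the healthy arrays over which, with the others, the genes were picked, so the counts are not evidence about ASB11.

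**Figure D3:**
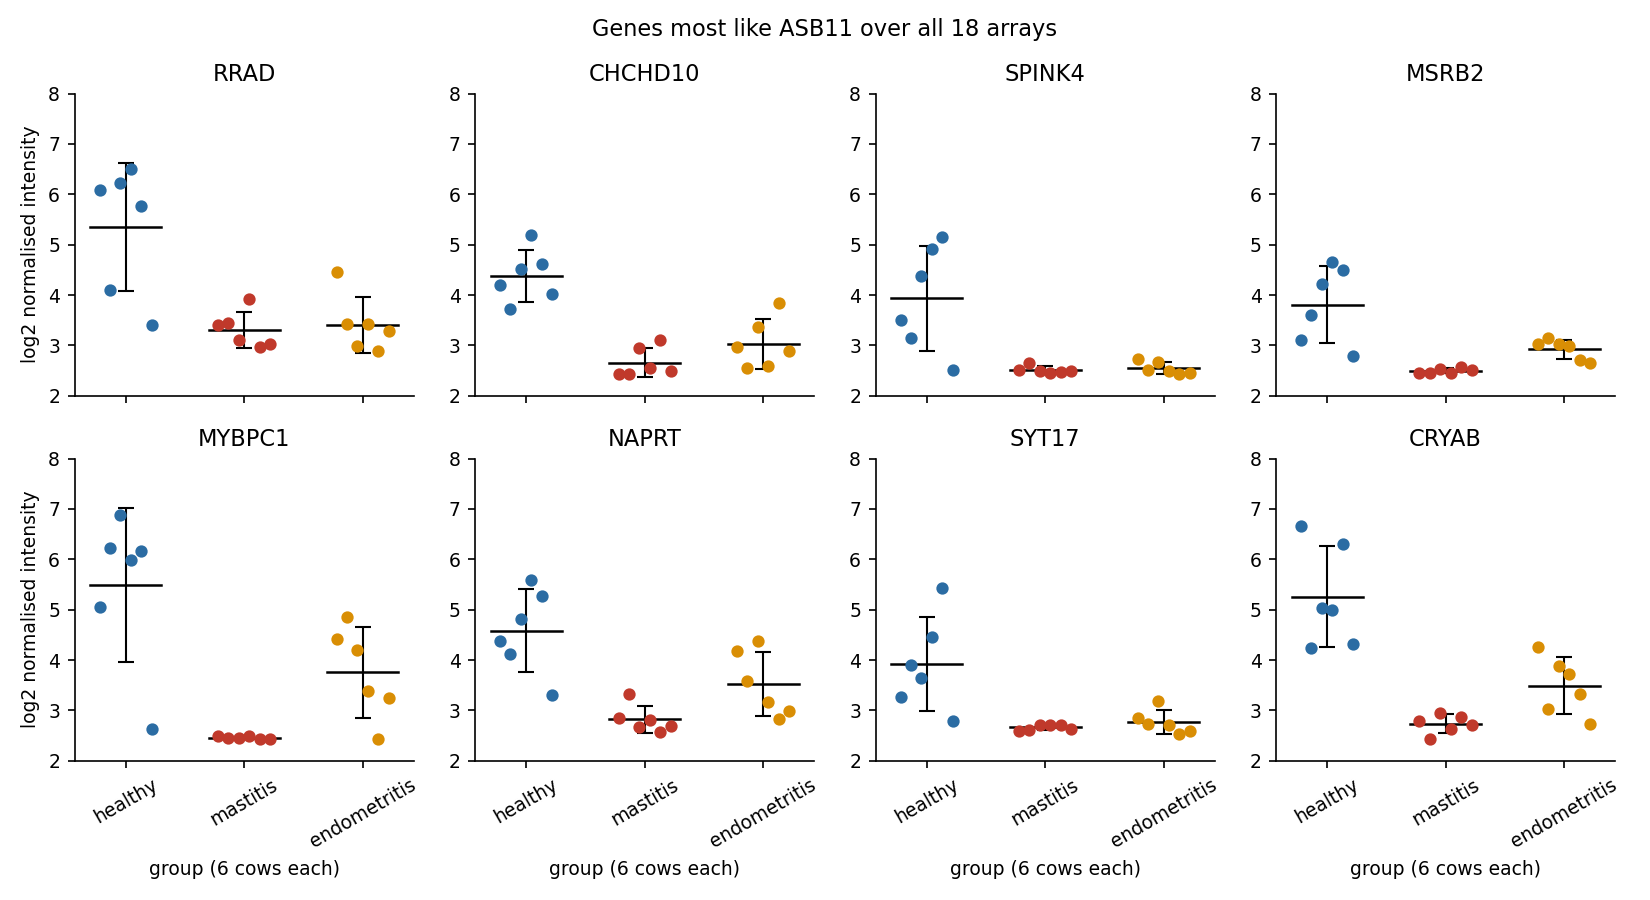
Level (log2 normalised intensity) of the 8 genes most like ASB11 over all 18 arrays, 1 point per cow and 6 cows per group; horizontal bars are means and error bars SD. RRAD ranges from 3.41 to 6.50 in healthy and from 2.90 to 4.45 in endometritis cows, and the healthy and endometritis values of all 8 genes overlap, by little for CHCHD10 and CRYAB.

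The ligase that ASB11 works with was measured at 9 genes: the scaffold CUL5, the RING protein RNF7, elongin C (ELOC), NEDD8, the NEDD8-conjugating enzyme UBE2F, the partner ligase ARIH2, the exchange factor CAND1, the neddylation cofactor DCUN1D1 and COPS5. Elongin B, UBE2M and SENP8 were not analysed here. In endometritis against healthy, none of the 9 passed (limma, smallest adjusted p = 0.925), and 5 had an unadjusted p under 0.05, as had 1047 of 24016 probe sets. The median difference was -0.31 where the median over all genes was 0. NEDD8 read 6.76 to 7.17 in endometritis and 7.28 to 8.46 in healthy cows, with no overlap, and its difference of -0.67 ± 0.22 (SE) did not pass. UBE2F differed by -0.90 ± 0.40, ELOC by -0.42 ± 0.19 and CUL5 by -0.42 ± 0.12, which also did not pass. CAND1 went the other way, by 0.44 ± 0.195 (SE), and its second probe set by 0.86, and neither passed. CUL5 read 3.53 to 3.96 in healthy and 2.98 to 3.53 in endometritis cows, under 4, where values often repeat exactly.

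In mastitis against healthy 4 of the 9 fell and none rose, against 15.8% and 11.3% of all genes, and the median difference was -0.37 against -0.0083 over all genes. UBE2F had lowest, median and highest values of 6.14, 7.59 and 8.17 in healthy cows and of 4.60, 5.73 and 6.39 in mastitis cows. It fell by 1.82 ± 0.40 (adjusted p = 0.00451 by limma), with a slight overlap between the groups. COPS5 had 6.42, 6.71 and 7.35 in healthy cows and 4.57, 5.36 and 6.39 in mastitis, without overlap, and fell by 1.35 ± 0.31 (adjusted p = 0.00604 by limma). NEDD8 fell by 1.04 ± 0.22 (adjusted p = 0.00382) and RNF7, the subunit that recruits the ubiquitin-conjugating enzyme, by 0.39 ± 0.11 (adjusted p = 0.0164, limma). The level of RNF7 was low throughout, with means of 3.10 in healthy and 2.71 in mastitis cows. All 4 calls were lost when the GAPDH 3′ minus 5′ difference entered the fit (limma, adjusted p from 0.0694 for COPS5 to 0.133 for UBE2F). Those of UBE2F and RNF7 were also lost with the secretory mean in the fit (limma, 0.358 and 0.315). Both were lost too among cows whose sample number in the labels, in the sample title, is above 120. That cut keeps mastitis cows 1 and 2, healthy cows 1 to 3 and endometritis cows 2 to 6. Calls can be lost there because fewer cows are fitted.

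In mastitis against endometritis, CUL5 was higher by 0.45 ± 0.12 (limma, adjusted p = 0.0198), CAND1, which exchanges substrate receptors on cullins, was lower by 0.72 (0.0205) and COPS5 was lower by 1.04 (0.0345). These 3 of 9 stand against 9.14% of genes called higher and 10.9% called lower, with a median difference of -0.28 in the list and -0.011 over all genes. The level of CUL5 was low, at 3.45 to 4.10 in mastitis and 2.98 to 3.53 in endometritis cows, mostly under 4, where values often repeat exactly. Without endometritis cow 1 the call of CAND1 was lost (adjusted p = 0.0546 by limma), as was that of COPS5, and 1 of the 3 calls was left. COPS5 was also lost without mastitis cow 1, 2 or 4, without endometritis cow 5 or 6, with array weights and with the GAPDH covariate, and CAND1 with the secretory covariate (adjusted p = 0.0825) or above sample number 120. With only these 2 groups fitted, all 3 calls were lost (limma, CUL5 at an adjusted p of 0.0522). A second CAND1 probe set differed by -0.39 and did not pass (adjusted p = 0.396, limma).

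Other substrate receptors with a SOCS box were measured at 21 genes of 35 listed. None passed in endometritis against healthy (limma, smallest adjusted p = 0.925), 0 had an unadjusted p under 0.05, and the median difference was -0.020 against 0 over all genes. Among the ASB genes, ASB2, ASB5, ASB7, ASB12 and ASB15 averaged 2.43 to 2.53 in each group, at or near the floor of the table. ASB6 and ASB13 averaged 2.78 to 3.01, ASB3 3.78 in healthy, 3.94 in mastitis and 4.11 in endometritis, and ASB8 5.44, 4.43 and 5.28. The largest endometritis differences in the family were 0.86 ± 0.54 (SE) for WSB1 and -0.68 ± 0.37 for SOCS2, a brake on growth hormone signalling, and neither passed.

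In mastitis against healthy, 2 of the 21 rose and 2 fell, shares near or under the 11.3% and 15.8% of all genes, with a median difference of -0.030 against -0.0083 over all genes. SOCS3, which blocks cytokine signalling through JAK kinases and STAT3, read 2.45 to 2.61 in healthy, 2.43 to 2.60 in endometritis and 3.37 to 5.57 in mastitis cows, without overlap. It rose by 2.33 ± 0.25 (SE, adjusted p = 3.75e-05 by limma), and by 2.36 against endometritis (adjusted p = 4.42e-05, limma). A second SOCS3 probe set averaged 2.43 to 2.51 in all groups and did not pass. WSB1, a receptor that acts on the thyroid hormone deiodinase, read 4.79 to 6.99 in healthy, 5.15 to 8.43 in endometritis and 8.65 to 10.2 in mastitis cows. It rose by 3.30 ± 0.54 (adjusted p = 0.000582 by limma) and by 2.44 against endometritis (adjusted p = 0.00637, limma). SOCS5 fell by 0.92 ± 0.30 (adjusted p = 0.0445, limma) and SPSB2 by 0.27 ± 0.080 (adjusted p = 0.0257), from healthy means of 3.55 and 2.83. The call of SPSB2 was lost without mastitis cow 2 or cow 5 (limma, adjusted p = 0.0519 and 0.0539), and that of SOCS5 without any of 12 of the 18 arrays. Both were also lost with median centring and with either covariate, and with the secretory covariate the SOCS5 difference changed sign, to 0.51 ± 0.75 (SE, adjusted p = 0.915 by limma).

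Genes tied to reported actions of ASB11 were measured at 13 of 23 listed symbols: 11 of the ER stress response and the Notch ligands DLL4 and JAG1. BIK, RPN1, XBP1, ERN1, ATF6, EDEM1, DLL1, NOTCH1, NOTCH2 and HES1 were not analysed here. In endometritis against healthy none of the 13 passed (limma, smallest adjusted p = 0.925), and 2 had an unadjusted p under 0.05, as had 1047 of 24016 probe sets. The median difference was 0.35 against 0 over all genes. Chaperones of the ER had the largest values there: HSP90B1 differed by 0.99 ± 0.48 (SE), PDIA4 by 0.96 ± 0.43, SEL1L, a part of the ER degradation machinery, by 0.88 ± 0.36 and CALR by 0.80 ± 0.40. HSP90B1 had lowest, median and highest values of 7.15, 8.30 and 9.20 in healthy and of 8.29, 9.53 and 10.1 in endometritis cows, an overlap of nearly 1 log2 unit. The other 2 PDIA4 probe sets differed by -0.013 and 0.10. DLL4 averaged 2.43 in every group, and JAG1 4.28 in healthy and 4.29 in endometritis cows.

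Of the same 13, 4 rose in mastitis against healthy and none fell, where 11.3% of all genes rose and 15.8% fell, with a median difference of 0.93 against -0.0083 over all genes. DDIT3, the stress-induced transcription factor CHOP, had lowest, median and highest values of 4.05, 4.48 and 4.61 in healthy and of 6.64, 6.77 and 8.92 in mastitis cows, without overlap. It rose by 2.91 ± 0.40 (SE, adjusted p = 0.000169 by limma). HERPUD1, which serves ER-associated degradation, rose by 1.43 ± 0.21 (adjusted p = 0.000291), ATF4, the transcription factor upstream of DDIT3, by 1.33 ± 0.36 (0.0167) and DNAJB9, an ER cochaperone, by 0.88 ± 0.28 (0.0356, all limma). The call of DNAJB9 was lost without any of 8 of the 18 arrays, and that of ATF4 after quantile normalisation, with the GAPDH covariate or above title number 120 (limma, highest adjusted p = 0.154). In mastitis against endometritis DDIT3 rose by 2.94, ATF4 by 1.52 and HERPUD1 by 1.15 (limma, adjusted p = 0.000205, 0.0102 and 0.00192). That call of ATF4 was lost after quantile normalisation and above title number 120 (limma, highest adjusted p = 0.0961). Above title number 120, where few mastitis cows remain, HERPUD1 was lost in both comparisons and WSB1 against endometritis. Neutrophil markers were higher and secretory markers lower in the same mastitis cows, and their part in the list results was not tested. The secretory mean was 5.53 to 9.39 in mastitis, 11.8 to 13.0 in healthy and 10.4 to 13.0 in endometritis cows. Without overlap, its effect as a covariate cannot be told apart from that of mastitis. With the secretory mean in the fit, WSB1, HERPUD1 and DNAJB9 no longer passed against healthy (limma, adjusted p = 0.213, 0.165 and 0.712), while DDIT3 and SOCS3 did (0.0077 and 0.0201). Against endometritis, WSB1 and HERPUD1 were lost with it too (limma, adjusted p = 0.387 and 0.255).

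**Figure D4:**
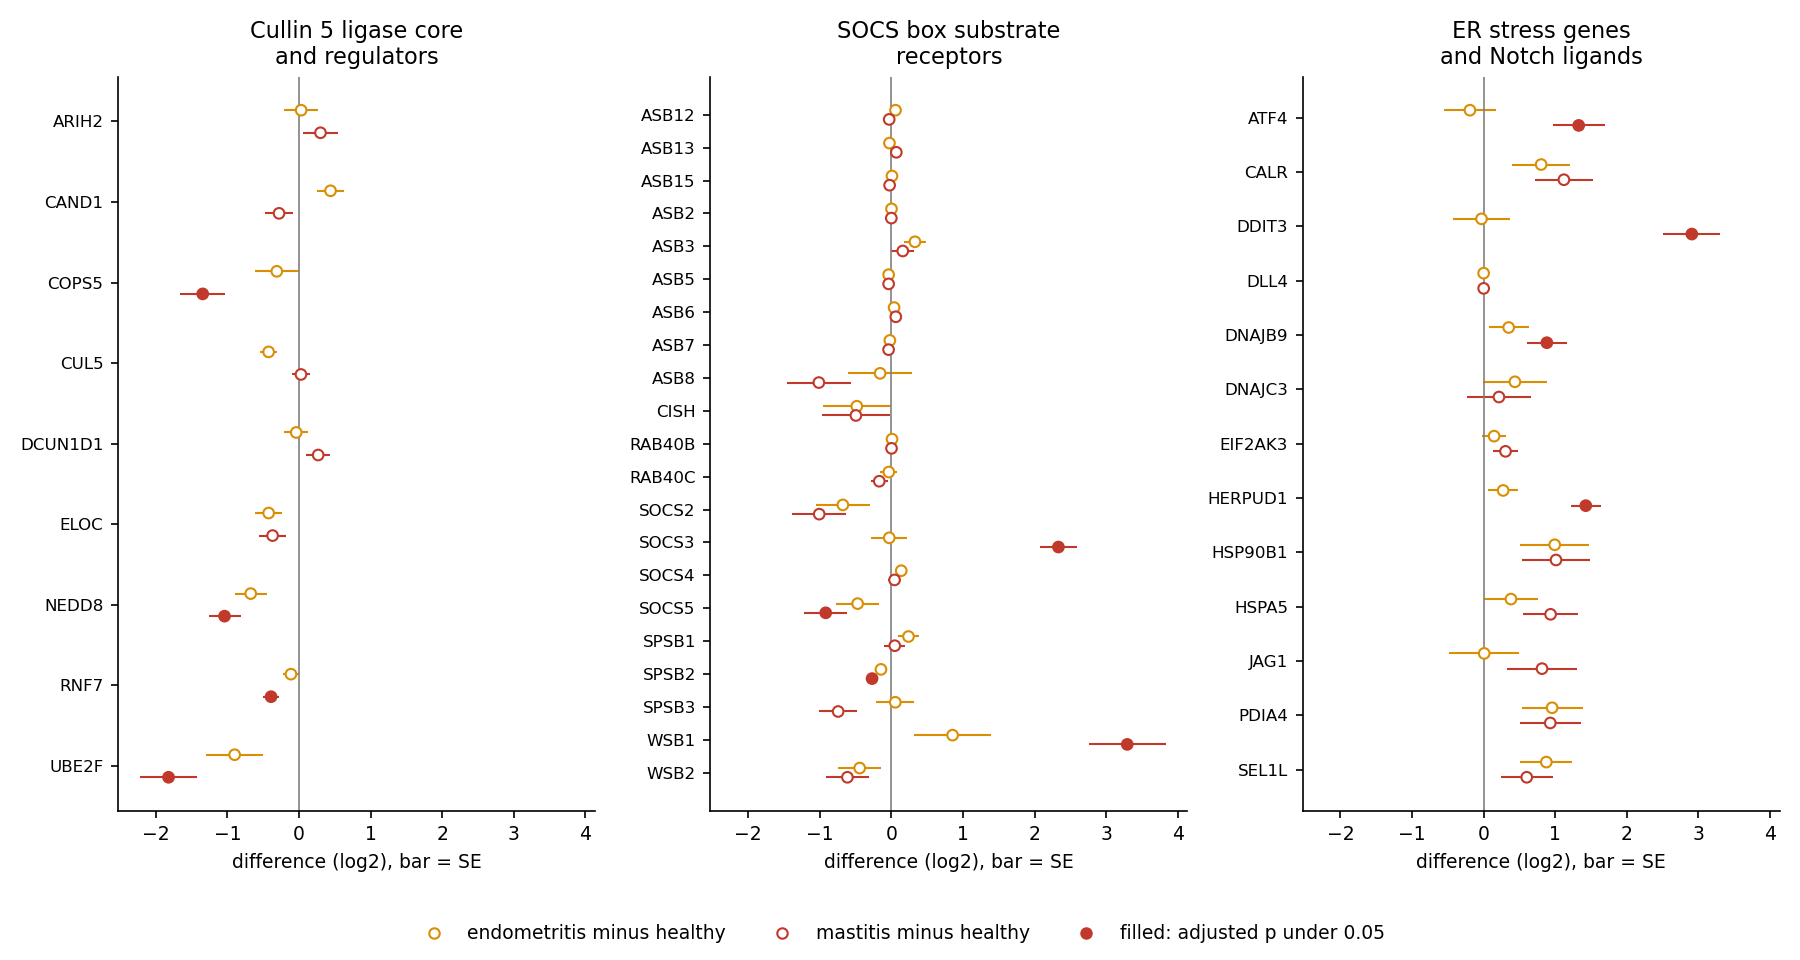
Difference from healthy (log2, bars are SE of the limma fit) for measured genes of the cullin 5 ligase, of other SOCS box receptors and of ER stress and Notch ligands, in endometritis and in mastitis, 6 cows per group; filled points have an adjusted p under 0.05. No endometritis point is filled, and the largest filled mastitis differences are 3.30 for WSB1, 2.91 for DDIT3 and 2.33 for SOCS3.

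ASB11 lies on the X chromosome in the RefSeq annotation of the ARS-UCD2.0 cattle genome, next to its relative ASB9. Of the 5 annotated genes on each side, 3 were measured under their symbols: PIR, VEGFD and MOSPD2. PIR, an iron-containing nuclear protein, averaged 4.80 ± 0.90 (SD, n = 6) in healthy, 3.23 ± 0.78 in mastitis and 3.95 ± 0.61 in endometritis cows. It was lower than healthy in mastitis (-1.57 ± 0.44 SE, adjusted p = 0.0184 by limma), with the groups overlapping, and the difference of -0.84 in endometritis did not pass (adjusted p = 0.925, limma). Its other 2 probe sets differed from healthy by -0.80 and -0.074 in mastitis and did not pass. The growth factor gene VEGFD averaged 2.43 to 2.46 in every group. MOSPD2, a membrane protein of the ER, averaged 5.96, 6.19 and 6.32 in healthy, mastitis and endometritis cows and did not pass in any comparison. The healthy and endometritis ranges of all 3 neighbours overlapped.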

How the data were processed

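RNA from milk cells of 18 cows was extracted with TRI reagent, treated with DNase and used where its integrity number exceeded 6, per the labels' protocols. A 3′ IVT Express kit labelled 100 ng, and 10 µg of product went onto 1 Affymetrix bovine array per cow. RMA, GCRMA and limma appear in the submitters' processing notes, without versions. The values are log2 intensities normalised and deposited by the authors. The sources used here give neither the method that made them nor the base of the logarithm. Values from 2.43 to 14.2 with a median of 2.55 were read as log2, and folds rest on that reading. Raw intensities were not used here.

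Of 24128 probe sets, 112 controls were left out and 24016 tested. The platform annotation gave 1 symbol to 13292, several to 86 and none to 10638, and 0 symbols were updated through RefSeq. A gene is its probe set with the highest mean. All 18 arrays entered 1 limma fit (version 3.58.1, R 4.3.3) of 3 groups without covariates, two-sided, with Benjamini-Hochberg adjustment over 24016 probe sets per comparison and a threshold of 0.05. The fit was tested on simulated data. The 6 arrays per group limit the precision. Cows are separate animals, and replicate numbers follow the order of deposit and pair nothing.

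ASB11, the gene lists and the markers were chosen with earlier results of these data known. Named genes are ASB11, the 10 most and 5 least correlated with it over healthy arrays and the 8 most correlated over all arrays (SD at least 0.5, mean above the median). The next 5 by p in endometritis, up to 4 members per list and comparison with the smallest p and the measured genes among 5 annotated on each side were added, as were members named for their level. Alternatives were another fit or prior, array weights, a filter on dim probe sets, median centring, quantile normalisation, 2 covariates, cows with a title number above 120, and leaving out each array. No sequence is shown.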

Additional observations from a re-analysis of the deposited data

Results flagged for a closer look

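In groups of 6 arrays, an array was singled out when its gap to the nearest other array, divided by the range of its group, exceeded Dixon's critical value of 0.625. This happened in 20 of 159 groups of values, where chance gives about 1 in 20. Many of the genes were picked by their values on these same arrays, so the count is not a test. ASB11 itself read 3.12 in mastitis cow 1, the lowest of all 18 arrays, and the next mastitis cow read 3.61. The same cow was highest of its group for BTN1A1 at 5.06 and ELF5 at 5.6. Its secretory mean was 9.39, the highest in mastitis.

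Healthy cow 6, the lowest healthy cow for ASB11, was far below the rest of its group for LTF at 6.00 and far above it for LOC618541 at 5.62 and PIK3R1 at 4.40. These genes were picked for their r with ASB11 over the healthy arrays, which favours genes where cow 6 stands apart. Endometritis cow 5 was far below its group for XDH at 8.33, ELF5 at 6.13 and ATF4 at 7.80. Its secretory mean of 10.4 was the lowest in endometritis, and its ASB11 value of 3.67 lay within the range of its group.

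The remaining values stood alone. RRAD was 4.45 in endometritis cow 1, CTR9 6.73 in endometritis cow 3, SPSB2 2.81 in endometritis cow 1 and SOCS3 2.60 in endometritis cow 6. Mastitis cow 2 was high for SPINK4 at 2.66, NAPRT at 3.33 and VEGFD at 2.58. RNF7 was 2.49 in mastitis cow 4, and SOCS3 was 3.37 in mastitis cow 5. In healthy cow 5, NEDD8 was 8.46 and SPSB2 3.25. Values under 4 often repeat exactly between arrays, which shrinks the range of a group.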

How the results depend on the processing

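ASB11 stayed lower in endometritis and in mastitis than in healthy cows in all 9 other settings and all fits that left out an array, from -4.19 to -3.19 and from -4.47 to -2.96 by setting, and from -4.29 to -3.39 and from -4.40 to -3.50 by array left out. Between mastitis and endometritis it was -0.11, from -0.14 to -0.016 by array left out, and turned to 0.23 with the GAPDH covariate and 0.34 with the secretory covariate, and the cause was not tested. Probe sets called by limma in endometritis against healthy numbered 0, then 1 with array weights, with a trended and robust prior, with dim probe sets left out and with median centring, and that 1 was ASB11. There were 4 among cows with a title number above 120 (ASB11, SCMH1, ERCC5 and MALL) and 0 to 1 by array left out, the 1 being ASB11 without healthy cow 6. With only these 2 groups in the fit ASB11 ranked 5 by p, with an adjusted p of 0.518 by limma, against 4.48e-06 to 0.518 over all settings. The 4.48e-06 came from the fit without healthy cow 6, and leaving out any other array gave 0.0633 to 0.248 (limma). This contrast chose the gene, so these calls and adjusted p are not a test of ASB11.

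Calls in mastitis against healthy numbered 4689 probe sets, 3786 to 4854 by array left out. They fell to 1428 with the GAPDH covariate, 3005 with the secretory covariate and 2347 above title number 120, where fewer cows were fitted. List calls there were 4 for the ligase core, 0 with the GAPDH covariate, 2 with the secretory covariate and 2 above title number 120. For SOCS box receptors they were 4, against 2 with median centring, either covariate or title number above 120, and 2 to 5 by array left out. For the ER stress and Notch list they were 4, against 7 with array weights, 2 with quantile normalisation, 2 with the GAPDH covariate, 1 above title number 120 and 3 to 5 by array left out. In mastitis against endometritis, 3493 probe sets were called, 2639 to 3835 by array left out. The ligase core had 3 calls, 0 with only the 2 groups fitted and 1 to 4 by array left out. SOCS box receptors had 2, 1 above title number 120 and 2 to 3 by array left out. The ER stress and Notch list had 3, and 6 with the secretory covariate. The cause of these changes was not tested. Of the 10 genes most like ASB11 over healthy arrays, 2 were again among the top 10 with no filter on mean or SD, and 0 to 5 with an array left out. Signal near the floor limits any reading of ASB11 among diseased cows.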
